A study of Mus musculus with 9 samples.

Results

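The 29 genes described here encode the enzymes of cholesterol synthesis and the proteins that sense, move, export and store sterols. They were taken by symbol from a table of 56748 Ensembl identifiers, each symbol matched 1 identifier, and all 29 were among the 14431 genes that passed the filter on low values. By role they comprise 5 early mevalonate enzymes, 6 isoprenoid and squalene enzymes, 8 enzymes after lanosterol, 4 genes of SREBP2 control and 6 genes of transport, efflux and storage. Transcripts were measured by RNA sequencing of polyadenylated RNA from ovarian granulosa cells, the somatic cells around the oocyte, of wild type female C57BL/6 mice. The CTX_HCQ mice received cyclophosphamide (CTX), an alkylating drug that depletes ovarian follicles, at 120 mg per kg, together with oral hydroxychloroquine (HCQ), a weak base that accumulates in lysosomes, at 40 mg per kg per day. HCQ dosing began 7 days ahead of CTX and went on for another 4 weeks. The CTX mice received the same dose of CTX alone. The Control mice are called vehicle-treated in the design text and untreated in the labels. Each group holds 3 libraries. Ages, the number of mice behind a library and the means of isolating the cells are not given in the sources used here, so p-values measure the spread between libraries, which may be technical.

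Cholesterol is built from acetyl-CoA through mevalonate, isoprenoid phosphates, squalene and lanosterol. When sterols are scarce in the endoplasmic reticulum, SCAP carries SREBP2 to the Golgi, where it is cleaved, and the released fragment switches on most genes of the pathway together, including Insig1, whose product then holds SCAP back. When oxysterols are plentiful, liver X receptors raise the efflux transporter gene Abca1. Ovarian steroid-making cells use cholesterol as the starting material of progesterone, and luteal cells keep part of it as esters made by the product of Soat1.

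Promoter sequences were searched for short motifs. Whether these motifs bear on the variation of the genes across libraries, described further on, was not tested. RefSeq promoter windows, from 250 bases before to 50 bases after a transcript start, were matched by symbol for 23 of the 29 genes, in build GRCm38.p6, which differs from the build named by the submitters. The CCAAT box, the site of NF-Y, a partner of SREBP2, was searched as CCAAT on both strands, the reverse strand reading ATTGG. It occurred in 15 of the 16 enzymes with a window, Acat2 being the exception, where 20 of the 29 windows of all 23 genes and 37.4% of all 32851 windows held it. The GC box GGGCGG, searched the same way, occurred in 14 of these 16 enzymes, in 24 of the 29 windows of the gene set and in 35.7% of all windows. The SREBP element, searched as TCACNCCAC on both strands, occurred in Hmgcs1 alone among the 23 genes, in 1 of the 29 windows, and in 1.24% of all windows. A gene with several windows counts once if any of them holds the motif. A match describes letters only, and an absent match says nothing of the factor. Acat2, without a CCAAT box, followed Hmgcs1 closely across libraries (Pearson's r = 0.979). Ggps1 (r = -0.240) and Dhcr7 (r = 0.030) carry the box and did not follow Hmgcs1, while the other enzymes with the box did. The windows of Hmgcs1, the gene with the SREBP element, of Msmo1, which followed Hmgcs1 most closely across libraries, and of Nsdhl, which had the smallest p of the enzymes, are shown 5′ to 3′ in the direction of transcription, with CCAAT boxes and the SREBP element in capitals. The choice of the last 2 followed a look at their values.
Hmgcs1: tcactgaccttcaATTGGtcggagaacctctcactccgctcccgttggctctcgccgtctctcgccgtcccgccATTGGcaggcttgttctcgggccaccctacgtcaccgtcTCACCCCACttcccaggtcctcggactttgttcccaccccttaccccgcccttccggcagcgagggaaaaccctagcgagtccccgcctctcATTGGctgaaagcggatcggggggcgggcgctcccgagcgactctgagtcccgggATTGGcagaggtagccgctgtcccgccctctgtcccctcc
Msmo1: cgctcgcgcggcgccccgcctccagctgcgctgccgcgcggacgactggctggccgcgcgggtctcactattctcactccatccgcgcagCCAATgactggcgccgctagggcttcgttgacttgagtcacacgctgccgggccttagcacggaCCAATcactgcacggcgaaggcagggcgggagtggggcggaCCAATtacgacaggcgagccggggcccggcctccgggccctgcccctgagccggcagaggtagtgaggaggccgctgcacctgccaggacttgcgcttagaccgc
Nsdhl: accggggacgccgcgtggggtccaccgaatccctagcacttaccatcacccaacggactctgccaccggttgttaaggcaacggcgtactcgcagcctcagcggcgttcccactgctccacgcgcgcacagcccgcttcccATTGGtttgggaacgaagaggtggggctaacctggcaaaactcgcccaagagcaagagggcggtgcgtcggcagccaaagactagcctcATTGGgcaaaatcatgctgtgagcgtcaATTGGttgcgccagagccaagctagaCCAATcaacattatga
The Hmgcs1 window lies at chr13:119690101-119690400 on the plus strand, that of Msmo1 at chr8:64733529-64733828 on the minus strand and that of Nsdhl at chrX:72918271-72918570 on the plus strand. Hmgcs1 carries 4 CCAAT boxes, and its SREBP element begins 137 bases before the start. Msmo1 carries 3 CCAAT boxes, all in the forward orientation, and Nsdhl carries 4.

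Levels are deposited FPKM, which correct for the length of a gene and the size of a library, given as mean ± SD of 3 libraries unless single libraries are listed. Recovered depth was 13903371 to 17755951 reads per library, and a member rested on 61 reads (Abcg1) to 41654 reads (Soat1) in a library. The mitochondrial share of summed FPKM was 28.9% for CTX 3 and ranged over 11.7% to 17.5% for the other libraries. The 10 granulosa markers were all detected in every library, with a summed level of 4037 to 6454 FPKM. The sum was made up mostly of Inha, at 2865 to 4951 FPKM. Markers of other cells were present too, in amounts that differed between libraries and are given beside the enzymes below. In bulk RNA, fewer cells of a type and less RNA per cell cannot be told apart.

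The enzymes stood at widely different levels in libraries of the same group. The summed FPKM of the 19 enzymes was 397, 776 and 351 in CTX_HCQ, 1266, 969.6 and 594 in CTX and 812, 360.1 and 416 in Control. CTX 1 held the highest value of the 9 libraries for 16 of the 19 enzymes, and CTX_HCQ 3 the lowest for 8. The 4 libraries CTX 1, CTX 2, Control 1 and CTX_HCQ 2 were among the 4 highest for 18, 16, 16 and 14 enzymes, while CTX_HCQ 1, CTX_HCQ 3, Control 2 and Control 3 were among the 4 lowest for 15, 18, 16 and 16. CTX 3 lay between these sets for most enzymes.

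**Figure D1:**
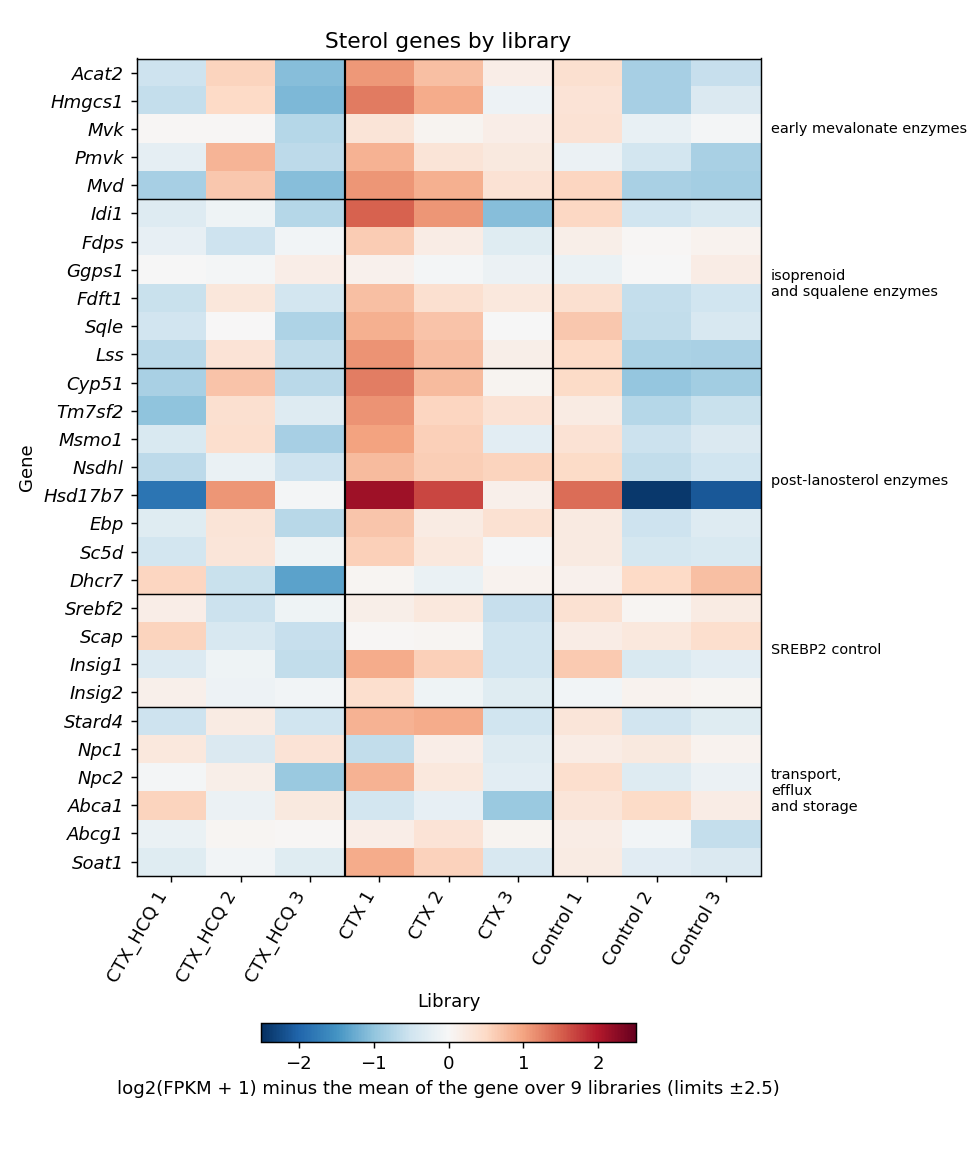
Level of each of the 29 genes (rows, grouped by role) in each library (columns), as log2(FPKM + 1) minus the mean of the gene over the 9 libraries. Most enzyme rows are red in CTX 1, CTX 2, Control 1 and CTX_HCQ 2 and blue in Control 2, Control 3, CTX_HCQ 1 and CTX_HCQ 3, while Dhcr7, Ggps1, Srebf2, Scap, Npc1 and Abca1 depart from this pattern.

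Among the early mevalonate enzymes, Hmgcs1 (ENSMUSG00000093930), which encodes HMG-CoA synthase, stood at 66.4, 143 and 46.3 FPKM in CTX_HCQ libraries 1, 2 and 3, 251, 194 and 92.4 FPKM in CTX libraries 1, 2 and 3, and 128, 56.3 and 78.5 FPKM in Control libraries 1, 2 and 3. CTX 1 and CTX 2 lay above all other libraries, CTX 3 lay among the CTX_HCQ and Control libraries, and the groups overlapped. Pmvk (ENSMUSG00000027952), which encodes phosphomevalonate kinase, stood at 11.2, 24.8 and 7.99 FPKM in CTX_HCQ, 24.9, 16.8 and 15.7 FPKM in CTX and 11.9, 9.34 and 7.15 FPKM in Control. All CTX libraries lay above all Control libraries, while CTX_HCQ 2 was level with CTX 1. Acat2, the cytosolic thiolase gene at the head of the pathway, averaged 20.2 ± 12.5 FPKM in CTX_HCQ, 38.4 ± 12.1 FPKM in CTX and 19.4 ± 9.74 FPKM in Control. The decarboxylase gene Mvd averaged 24.6 ± 18.2 FPKM in CTX_HCQ, 50.5 ± 13.1 FPKM in CTX and 24 ± 15 FPKM in Control. For both genes the CTX mean was the highest and the CTX_HCQ and Control means were close to each other. Mvk, the mevalonate kinase gene, averaged 17.6 ± 5.06 FPKM in CTX_HCQ, 22.9 ± 2.12 FPKM in CTX and 20.9 ± 4.38 FPKM in Control, a narrower range.

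In the stretch through isoprenoids to lanosterol, Sqle (ENSMUSG00000022351), which encodes squalene epoxidase, stood at 23.1, 32.8 and 18.6 FPKM in CTX_HCQ libraries 1, 2 and 3, 61.2, 53.7 and 32.2 FPKM in CTX libraries 1, 2 and 3, and 52.3, 20.9 and 24.4 FPKM in Control libraries 1, 2 and 3. CTX 3 was about level with CTX_HCQ 2, and Control 1 with CTX 2, so no pair of groups separated. Lss (ENSMUSG00000033105), the lanosterol synthase gene, stood at 4.97, 11.1 and 5.22 FPKM in CTX_HCQ, 19.7, 15.3 and 9.51 FPKM in CTX and 12.5, 4.51 and 4.45 FPKM in Control. CTX_HCQ 2 and Control 1 stood well above the other libraries of their own groups and within the range of CTX. Fdft1, the squalene synthase gene, averaged 34 ± 12 FPKM in CTX_HCQ, 55.2 ± 10.2 FPKM in CTX and 34.7 ± 14.6 FPKM in Control, and Idi1, the isomerase gene, 7.64 ± 1.77 FPKM in CTX_HCQ, 19.1 ± 13.2 FPKM in CTX and 9.84 ± 4.50 FPKM in Control. Idi1 was at 4.31 FPKM in CTX 3, its lowest library, and at 29.9 FPKM in CTX 1, its highest. Ggps1, whose enzyme leaves the sterol route to make the geranylgeranyl group of prenylated proteins, averaged 8.20 ± 0.789 FPKM in CTX_HCQ, 7.79 ± 0.837 FPKM in CTX and 8.02 ± 1.08 FPKM in Control, with a highest library only 1.31 times the lowest. Fdps (ENSMUSG00000059743), the farnesyl diphosphate synthase gene, stood at 2.08, 1.48 and 2.42 FPKM in CTX_HCQ, 4.56, 3.07 and 1.90 FPKM in CTX and 2.95, 2.62 and 2.80 FPKM in Control. Its level is uncertain, since 26.7% of its exon bases are shared on the same strand with Gm43738, a gene listed at 0 in all 9 libraries. Of the exon bases of Fdft1, 18.3% overlap Ctsb on the opposite strand, a gene at 92.1 to 167 FPKM, and of those of Tm7sf2, 12.1% overlap Vps51 on the same strand at 8.88 to 12.4 FPKM. Scap and Hmgcs1 share 13.2% and 12.1% with genes on the opposite strand, and reads of Acat2 could be split with its near copy Acat3.

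Of the enzymes after lanosterol, Nsdhl (ENSMUSG00000031349), which encodes a sterol dehydrogenase of the demethylation complex, stood at 9.81, 14.3 and 11 FPKM in CTX_HCQ libraries 1, 2 and 3, 28.7, 25.2 and 24 FPKM in CTX libraries 1, 2 and 3, and 22.8, 10.1 and 11.1 FPKM in Control libraries 1, 2 and 3. The CTX libraries were all above the CTX_HCQ and the Control libraries, with Control 1 next below them. Tm7sf2 (ENSMUSG00000024799), a sterol reductase gene, stood at 3.56, 11.1 and 6.25 FPKM in CTX_HCQ, 18.8, 12.1 and 10.6 FPKM in CTX and 9.46, 4.54 and 5.18 FPKM in Control. Here the CTX libraries cleared all Control libraries, and CTX_HCQ 2 lay between CTX 3 and CTX 2. Hsd17b7 (ENSMUSG00000026675), which encodes a ketosterol reductase also known in rodents as the prolactin receptor-associated protein of the corpus luteum, was singled out after its values were seen, because it spanned the widest range. It stood at 16.5, 133 and 59.1 FPKM in CTX_HCQ, 271, 197 and 67.3 FPKM in CTX and 163, 10.7 and 13.3 FPKM in Control, 25.4-fold between the highest and lowest library. The next widest range among the 29 genes was 6.93-fold, for Idi1. Cyp51, the lanosterol demethylase gene, averaged 46.6 ± 30.2 FPKM in CTX_HCQ, 86.5 ± 35 FPKM in CTX and 40.2 ± 25.1 FPKM in Control. Msmo1, the methylsterol oxidase gene, averaged 36.2 ± 16.8 FPKM in CTX_HCQ, 60.1 ± 25 FPKM in CTX and 37.4 ± 13.6 FPKM in Control. Ebp, the sterol isomerase gene, averaged 22.2 ± 8.42 FPKM in CTX_HCQ, 34.3 ± 6.13 FPKM in CTX and 21.9 ± 6.35 FPKM in Control. Sc5d, the sterol desaturase gene, averaged 33.5 ± 9.11 FPKM in CTX_HCQ, 43.1 ± 9.58 FPKM in CTX and 30.8 ± 8.60 FPKM in Control. For each of these 4 genes CTX had the highest mean, and the SDs of the groups overlapped. Dhcr7 (ENSMUSG00000058454), whose enzyme makes cholesterol from its direct precursor, had another order, with 61.8, 28.3 and 16 FPKM in CTX_HCQ, 43.4, 37.5 and 44.7 FPKM in CTX and 45.5, 60.2 and 71.6 FPKM in Control. Its Control libraries were all above its CTX libraries, and CTX_HCQ held both a library near the top and the lowest library of all 9.

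**Figure D2:**
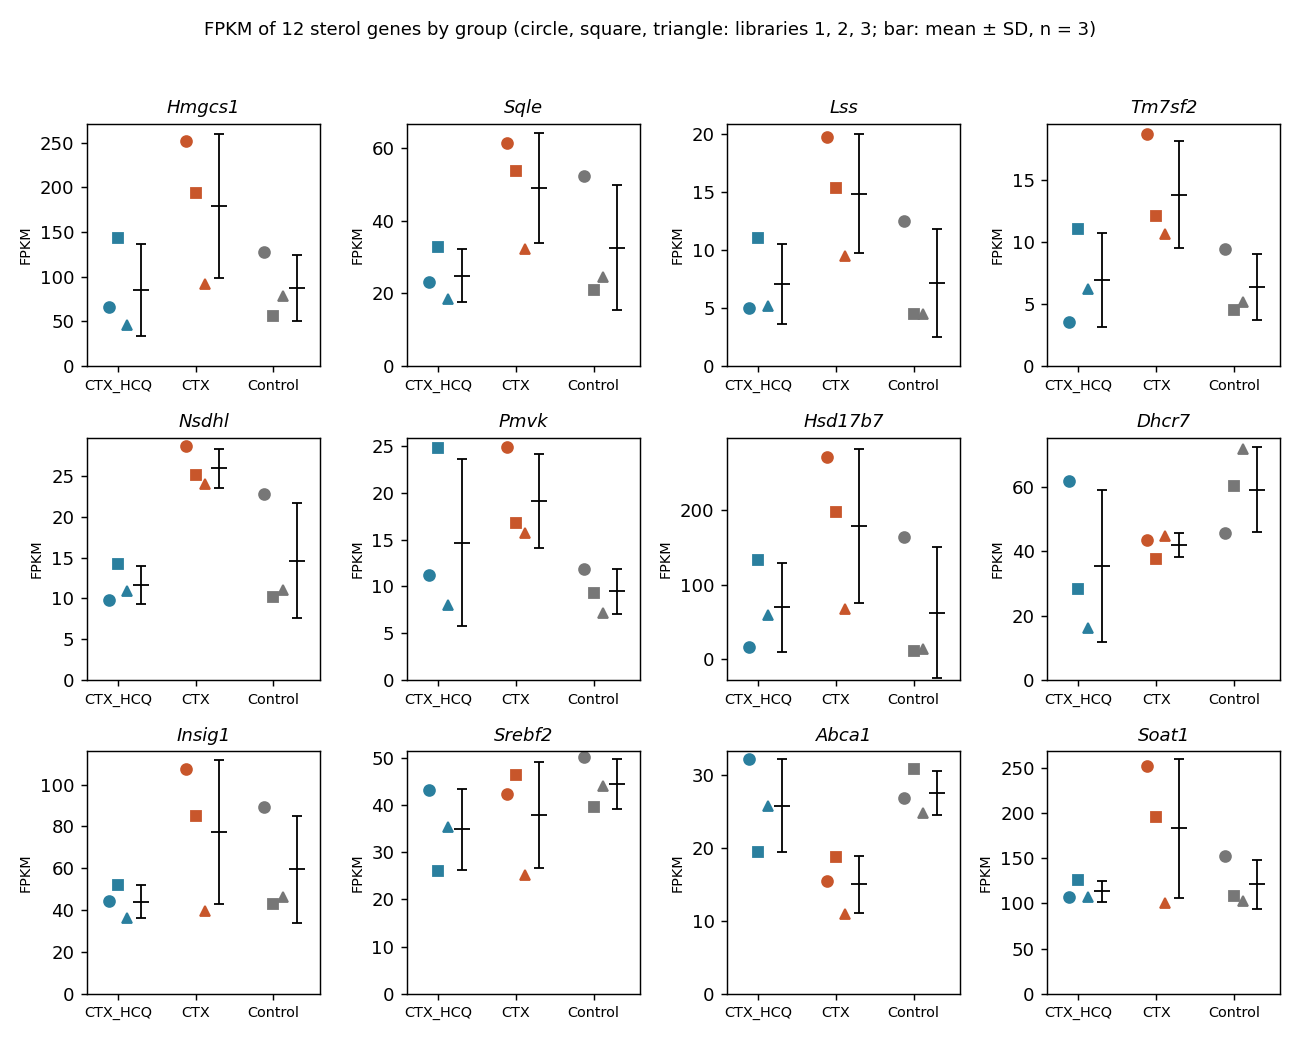
FPKM of 12 genes in each library of CTX_HCQ, CTX and Control (circles, squares and triangles are libraries 1, 2 and 3), with the group mean ± SD (n = 3) beside the points on a linear axis. In Nsdhl the 3 CTX libraries lie at 24.0 to 28.7 FPKM, above all others, in Abca1 they lie at 10.9 to 18.7 FPKM, below all others, and in Srebf2 the 3 groups overlap.

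The genes of SREBP2 control differed among themselves. Srebf2 (ENSMUSG00000022463), which encodes SREBP2, stood at 43.3, 26.1 and 35.5 FPKM in CTX_HCQ libraries 1, 2 and 3, 42.4, 46.3 and 25.2 FPKM in CTX libraries 1, 2 and 3, and 50.2, 39.6 and 44 FPKM in Control libraries 1, 2 and 3. Its lowest libraries, CTX 3 and CTX_HCQ 2, came from different groups, and the groups overlapped. Scap (ENSMUSG00000032485), the escort of SREBP2, stood at 151, 78.1 and 68.3 FPKM in CTX_HCQ, 105, 106 and 72.6 FPKM in CTX and 116, 123 and 138 FPKM in Control. All CTX libraries lay below all Control libraries, and CTX_HCQ spanned the whole range. Insig1 (ENSMUSG00000045294), itself a target of SREBP2, stood at 44.1, 52 and 36 FPKM in CTX_HCQ, 107, 85.1 and 39.5 FPKM in CTX and 89, 42.9 and 46.2 FPKM in Control. CTX 1, CTX 2 and Control 1 were high, and the other 6 libraries lay between 36 and 52 FPKM. Insig2, the paralog that is not driven in the same way, averaged 12.4 ± 1.23 FPKM in CTX_HCQ, 13 ± 3.81 FPKM in CTX and 12.8 ± 0.777 FPKM in Control.

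Of the genes of transport, efflux and storage, Abca1 (ENSMUSG00000015243), which encodes the transporter that loads cholesterol onto apolipoproteins, stood at 32.2, 19.4 and 25.8 FPKM in CTX_HCQ libraries 1, 2 and 3, 15.5, 18.7 and 10.9 FPKM in CTX libraries 1, 2 and 3, and 26.9, 30.8 and 24.9 FPKM in Control libraries 1, 2 and 3. Each CTX library was below each CTX_HCQ and each Control library, and CTX_HCQ and Control overlapped. Soat1 (ENSMUSG00000026600), which encodes the enzyme that esterifies cholesterol for storage, stood at 107, 127 and 107 FPKM in CTX_HCQ, 253, 196 and 100.3 FPKM in CTX and 152, 109 and 103 FPKM in Control. CTX 1, CTX 2 and Control 1 were the 3 highest libraries, as for Insig1. Stard4 (ENSMUSG00000024378), whose product carries sterol between membranes and is an SREBP2 target, stood at 5.33, 9.52 and 5.49 FPKM in CTX_HCQ, 15.7, 16.3 and 5.45 FPKM in CTX and 10.3, 5.51 and 6.34 FPKM in Control. CTX 3 was level with the low libraries of the other groups. Npc1 (ENSMUSG00000024413), which encodes the membrane protein that exports cholesterol from lysosomes, stood at 10.3, 6.32 and 11 FPKM in CTX_HCQ, 5.17, 9.61 and 6.56 FPKM in CTX and 9.77, 10.1 and 8.97 FPKM in Control, with its lowest library in CTX and its highest in CTX_HCQ. Npc2, which encodes the soluble partner of NPC1, averaged 61 ± 21.8 FPKM in CTX_HCQ, 91.4 ± 36.1 FPKM in CTX and 71.6 ± 20.5 FPKM in Control. Abcg1, another efflux transporter gene, was low throughout, at 1.23 ± 0.182 FPKM in CTX_HCQ, 1.61 ± 0.258 FPKM in CTX and 1.09 ± 0.553 FPKM in Control.

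The first question of the design was what cyclophosphamide does. Mean FPKM was higher in CTX than in Control for most synthesis enzymes. Among them were Hmgcs1 at the start of the mevalonate route and Nsdhl near its end. The mean was lower for the efflux gene Abca1 and higher for the other efflux gene, Abcg1. No single gene passed the threshold over all genes. In CTX against Control, 22 of the 29 genes had a log2 difference above 0, where 49.5% of all tested genes did, and the median was 0.60 against -0.0045 over all tested genes. None of the 29 passed the adjusted threshold of 0.05 (smallest adjusted p = 0.639 by limma), nor did any of the 14431 genes (0%), of which 1126 had an unadjusted p under 0.05, and voom on recovered reads called 0 as well. At an unadjusted p under 0.05, 9 members were higher and 1 was lower in CTX, where 3.6% and 4.2% of all genes were (7.8% in either direction). The groups did not overlap in 3 members that were higher in CTX, Pmvk, Tm7sf2 and Nsdhl, and in 3 that were lower, Dhcr7, Scap and Abca1, where the share over all genes was 8.72% higher and 11% lower. The direction was mainly that of the enzymes, 17 of 19 with a median of 0.71, the exceptions being Ggps1 and Dhcr7. Of the 4 genes of SREBP2 control 1 was higher, Insig1, and of the 6 genes of transport, efflux and storage 4 were, all but Npc1 and Abca1.

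The smallest p in this comparison belonged to Abca1, at 15 ± 3.91 FPKM in CTX and 27.6 ± 3.02 FPKM in Control, a log2 difference of -0.86 (SE 0.24, adjusted p = 0.639 by limma). Nsdhl, at 26 ± 2.43 FPKM in CTX and 14.7 ± 7.05 FPKM in Control, differed by 0.87 (SE 0.28, adjusted p = 0.639 by limma), Tm7sf2, at 13.8 ± 4.32 FPKM in CTX and 6.39 ± 2.67 FPKM in Control, by 1.02 (SE 0.37, adjusted p = 0.639 by limma), Pmvk, at 19.1 ± 5.02 FPKM in CTX and 9.46 ± 2.38 FPKM in Control, by 0.94 (SE 0.36, adjusted p = 0.639 by limma), and Lss, at 14.9 ± 5.13 FPKM in CTX and 7.15 ± 4.62 FPKM in Control, by 1.04 (SE 0.41, adjusted p = 0.639 by limma). These 5 genes were chosen for their smallest p, so differences beyond the standard error follow from the choice. None reached the threshold over all genes. Hmgcs1, at 179 ± 80.5 FPKM in CTX and 87.6 ± 36.7 FPKM in Control, differed by 0.99 (SE 0.49, adjusted p = 0.653 by limma) and Sqle by 0.64 (SE 0.37, adjusted p = 0.653 by limma). Insig1 differed by 0.34 (SE 0.39, adjusted p = 0.785 by limma), Stard4 by 0.60 (SE 0.39, adjusted p = 0.667 by limma) and Soat1 by 0.51 (SE 0.34, adjusted p = 0.668 by limma). Srebf2 differed by -0.26 (SE 0.27, adjusted p = 0.755 by limma) and Npc1 by -0.42 (SE 0.24, adjusted p = 0.653 by limma). With single libraries left out, Insig1 ranged over 0.048 to 0.76, Stard4 over 0.35 to 1.06, Soat1 over 0.23 to 0.89, Sqle over 0.39 to 1.04, Npc1 over -0.64 to -0.25 and Srebf2 over -0.43 to -0.00054, the last without CTX 3. The count of 9 members higher at an unadjusted p under 0.05 shifted with single libraries left out. It was 1 without CTX 1, 3 without CTX 2 and 14 without CTX 3. Leaving out Control 1, Control 2 or Control 3 gave 13, 0 or 1. For CTX_HCQ 1, CTX_HCQ 2 or CTX_HCQ 3 the count was 7, 11 or 8. The total over all tested genes, 1126 in either direction with every library kept, was 678, 1331 and 681 for the CTX omissions. It was 1566, 424 and 468 for the Control omissions and 1245, 1693 and 1443 for the CTX_HCQ omissions. The median log2 difference of the 29 genes was 0.35 without CTX 1. With library weights 16 members were called by limma, 15 higher and Abca1 lower in CTX, among 648 genes in all.

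**Figure D3:**
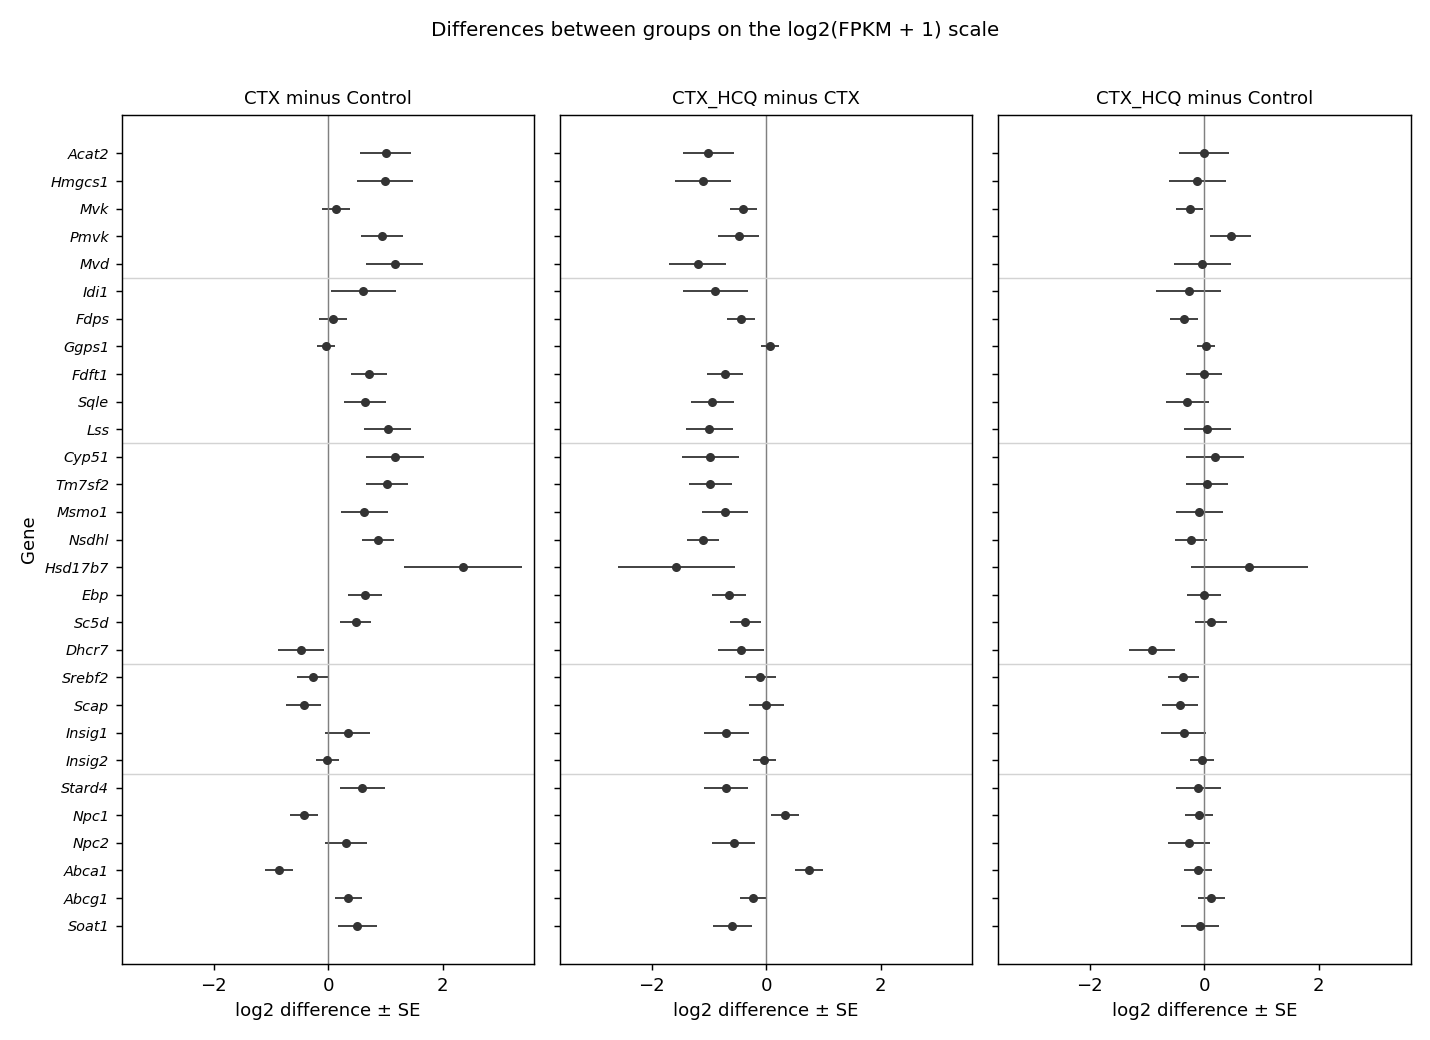
Log2 difference between groups for each of the 29 genes on the log2(FPKM + 1) scale, with bars of 1 standard error from limma over all 9 libraries. Most enzymes lie right of 0 for CTX minus Control and left of 0 for CTX_HCQ minus CTX, Abca1 lies on the opposite side in both, and CTX_HCQ minus Control scatters about 0.

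The next question was what hydroxychloroquine adds to cyclophosphamide. Mean FPKM was lower in CTX_HCQ than in CTX for the same enzymes Hmgcs1 and Nsdhl and for the SREBP2 targets Insig1 and Stard4. The mean was higher for Abca1 and lower for Abcg1, again with no gene past the threshold. In CTX_HCQ against CTX, 4 of the 29 genes had a log2 difference above 0, Abca1, Npc1, Ggps1 and Scap, where 52.1% of all tested genes did, and the median was -0.65 against 0.013 over all tested genes. None passed the adjusted threshold (smallest adjusted p = 0.499 by limma), again like all tested genes (0%), of which 785 had an unadjusted p under 0.05 (0 called with voom). At an unadjusted p under 0.05, 9 members were lower and 1, Abca1, was higher in CTX_HCQ, where 3.6% and 1.84% of all genes were (5.44% in either direction). The groups did not overlap in Nsdhl, Mvk and Abcg1, each lower in CTX_HCQ, where 4.57% of all genes did so, and in Abca1, higher, where 3.45% did. Of the 19 enzymes 18 were lower, with a median of -0.89. This comparison shares the CTX libraries with the first, so a high or low CTX library moves both in opposite directions.

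Nsdhl had the smallest p of the 29 genes here, at 11.7 ± 2.31 FPKM in CTX_HCQ and 26 ± 2.43 FPKM in CTX, a log2 difference of -1.10 (SE 0.28, adjusted p = 0.499 by limma). It was lower in CTX_HCQ without any overlap of the libraries. Abca1, at 25.8 ± 6.40 FPKM in CTX_HCQ and 15 ± 3.91 FPKM in CTX, differed by 0.74 (SE 0.24, adjusted p = 0.710 by limma). Tm7sf2 differed by -0.97 (SE 0.37, adjusted p = 0.846 by limma), Sqle by -0.94 (SE 0.37, adjusted p = 0.884 by limma), Lss by -0.996 (SE 0.41, adjusted p = 0.892 by limma) and Hmgcs1 by -1.11 (SE 0.49, adjusted p = 0.906 by limma). CTX_HCQ 2, the high library of its group, overlapped CTX 3 in each of these 4. Insig1 differed by -0.70 (SE 0.39, adjusted p = 0.906 by limma), Stard4 by -0.70 (SE 0.39, adjusted p = 0.906 by limma) and Soat1 by -0.59 (SE 0.34, adjusted p = 0.906 by limma). Npc1 differed by 0.33 (SE 0.24, adjusted p = 0.906 by limma) and Srebf2 by -0.10 (SE 0.27, adjusted p = 0.970 by limma), and the groups overlapped in both genes. With single libraries left out, Srebf2 ranged over -0.36 to 0.089, Npc1 over 0.16 to 0.56, Insig1 over -1.12 to -0.41, Stard4 over -1.17 to -0.46 and Soat1 over -0.97 to -0.31. The count of 9 members lower at an unadjusted p under 0.05 also shifted with single libraries left out. It was 1 without CTX 1, 3 without CTX 2 and 14 without CTX 3. Leaving out CTX_HCQ 1, CTX_HCQ 2 or CTX_HCQ 3 gave 2, 13 or 1. Leaving out Control 1, Control 2 or Control 3 gave 9, 7 or 5. The total over all tested genes, 785 in either direction with every library kept, was 483, 812 and 820 for the CTX omissions. For CTX_HCQ 1, CTX_HCQ 2 and CTX_HCQ 3 it was 665, 2440 and 668. For the Control omissions it was 826, 621 and 647. The median log2 difference of the 29 genes was -0.41 without CTX 1.

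In CTX_HCQ against Control most of the 29 genes had a log2 difference below 0. The log2 difference was above 0 in 8 of them, where 48.1% of all tested genes had one, and the median was -0.085 against -0.011 over all tested genes. At an unadjusted p under 0.05 only Dhcr7 was lower and none was higher, where 1.07% and 1.09% of all genes were (2.16% in either direction), and the count at the adjusted threshold was 0 with limma for the members as for all genes (0%), of which 312 had an unadjusted p under 0.05 (0 called with voom). Dhcr7, at 35.4 ± 23.7 FPKM in CTX_HCQ and 59.1 ± 13.1 FPKM in Control, differed by -0.91 (SE 0.40, adjusted p = 1 by limma). Fdps, at 1.99 ± 0.473 FPKM in CTX_HCQ and 2.79 ± 0.166 FPKM in Control, was the only member whose groups did not overlap, lower in CTX_HCQ, where 3.06% of all genes did so, and none was higher without overlap, where 3.25% were. The other members of smallest p were Scap at a difference of -0.43 (SE 0.31), Srebf2 at -0.36 (SE 0.27) and Pmvk at 0.46 (SE 0.36). With single libraries left out, Dhcr7 ranged over -1.41 to -0.46, Scap over -0.77 to -0.20 and Pmvk over 0.026 to 0.79. All 4 genes of SREBP2 control had a mean FPKM below that of Control, although the log2 difference of Scap was 0.07 with library weights. The number of members above 0 was 13 with voom on recovered reads, 13 after rescaling without mitochondrially encoded genes and 18 with library weights. The median over the 29 genes was 0.12 without Control 1, 0.0054 without CTX_HCQ 3 and -0.29 without CTX_HCQ 2.

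How closely the genes varied together was measured against Hmgcs1 over the 9 libraries, on log2(FPKM + 1), with exact two-sided permutation tests and Benjamini-Hochberg adjustment over the 28 other genes. An adjusted p under 0.05 was reached by 19 of the 28 for Pearson's r, each with a positive r, and by 19 for Spearman's rho, where Npc1, with a negative rho, took the place of Soat1. The same test was not run over all 14431 genes. These counts therefore do not show whether other genes followed Hmgcs1 less often. The closest was Msmo1, with r = 0.988 (exact permutation p = 2.76e-06, adjusted p = 7.72e-05) and rho = 1 (exact permutation p = 5.51e-06, the smallest that 9 libraries can give for rho), the same order of all 9 libraries. Acat2 followed with r = 0.979 and rho = 0.983 (exact permutation p = 2.48e-05 and 4.96e-05). By role, the genes that passed were 4 of 4 other early enzymes, 4 of 6 isoprenoid and squalene enzymes, 7 of 8 enzymes after lanosterol, 1 of 4 genes of SREBP2 control and 3 of 6 genes of transport, efflux and storage. The single gene of SREBP2 control was Insig1, with r = 0.882 and rho = 0.850 (exact permutation p = 0.00143 and 0.00607), and those of transport and storage were Stard4 (r = 0.932), Npc2 (r = 0.902) and Soat1 (r = 0.878).

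The enzymes that did not follow Hmgcs1 past the threshold were Fdps (r = 0.453), Ggps1 (r = -0.240) and Dhcr7 (r = 0.030). Srebf2 had r = 0.127, Scap r = -0.017 and Insig2 r = 0.245, none of them past the threshold. Npc1 had r = -0.666 and rho = -0.800 (exact permutation p = 0.0551 and 0.0138, adjusted 0.0772 and 0.0228), and Abca1 had r = -0.544. Without CTX 1 and CTX 2, the 2 libraries farthest from the median of Hmgcs1, 7 of the 28 genes passed for r, among them Msmo1 (r = 0.975), Acat2 (r = 0.972), Mvd (r = 0.923) and Ebp (r = 0.906). Several others kept a similar r over the 7 libraries and missed the threshold, with Fdft1 at r = 0.869, Lss at r = 0.863 and Stard4 at r = 0.848 (adjusted exact permutation p = 0.0511 each) and Mvk at r = 0.786. The r was lower for Idi1 (0.558), Soat1 (0.662), Nsdhl (0.667) and Hsd17b7 (0.671). With group means removed 14 passed.

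**Figure D4:**
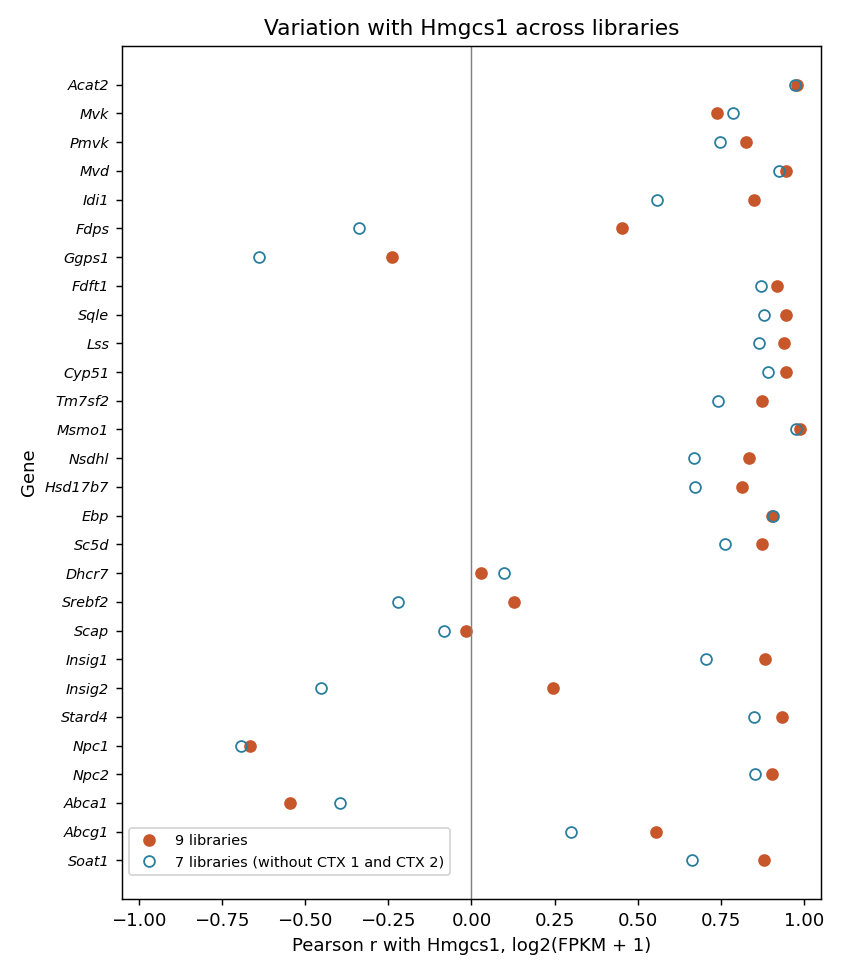
Pearson r of each gene with Hmgcs1 on log2(FPKM + 1), over 9 libraries (filled) and over 7 libraries without CTX 1 and CTX 2 (open). Most enzymes, Insig1, Stard4, Npc2 and Soat1 lie above 0.7 over 9 libraries, Srebf2, Scap and Dhcr7 lie near 0, and Npc1 and Abca1 lie below it.

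Some lists of markers of other cells had their highest sums in the libraries with the highest enzyme sums, and others did not. The 6 luteal markers had a summed FPKM of 274, 498 and 334 in CTX_HCQ, 1134, 706 and 355 in CTX and 647, 251 and 318 in Control, with CTX 1, CTX 2, Control 1 and CTX_HCQ 2 highest, the same 4 libraries as for the enzymes. None of the 6 was at 0 in any library, although Akr1c18 was at 0.244 FPKM in Control 1. The sum was made up mostly of Sfrp4, Lhcgr and Ptgfr. The median over the 6 markers of log2(FPKM + 1) minus the mean of the gene weighs them alike. By this median CTX_HCQ 2 was not among the high libraries, at -0.31, below CTX_HCQ 1 (-0.17), CTX_HCQ 3 (-0.094) and Control 3 (0.086). CTX 1, CTX 2 and Control 1 remained the highest, at 0.83, 0.60 and 0.44. Akr1c18 was high in CTX 2 alone, at 80.6 FPKM. Parm1 ran the other way, at 55.1, 7.03 and 8.91 FPKM in CTX_HCQ, 8.31, 8.03 and 7.99 FPKM in CTX and 13.6, 59.6 and 75.4 FPKM in Control. The 8 endothelial markers had a summed FPKM of 38.3, 86.7 and 44.2 in CTX_HCQ, 86, 68.2 and 50.7 in CTX and 71.7, 33.9 and 32.6 in Control. CTX_HCQ 2, CTX 1, Control 1 and CTX 2 were highest by this sum, and no marker was at 0. The 8 markers of ciliated and oviduct epithelium had a summed FPKM of 14.1, 12.5 and 20.6 in CTX_HCQ, 123, 79.2 and 391 in CTX and 84.7, 10.04 and 6.49 in Control, highest in CTX 3 and higher than in the other libraries in CTX 1, CTX 2 and Control 1 but not in CTX_HCQ 2, where Cdhr4 was at 0. In CTX against Control 4 of 6 luteal, 8 of 8 endothelial and 8 of 8 ciliated and oviduct markers had a log2 difference above 0, and in CTX_HCQ against CTX 5 of 6, 5 of 8 and 7 of 8 had one below 0. At an unadjusted p under 0.05, 7 of the 8 ciliated and oviduct markers were higher in CTX than in Control and 7 lower in CTX_HCQ than in CTX. The share over all genes was 3.6% in each case. Of all tested genes, 49.5% had a log2 difference above 0 in CTX against Control and 52.1% in CTX_HCQ against CTX. Smooth muscle markers were above 0 in 5 of 5 tested in CTX against Control and below 0 in 3 of 5 in CTX_HCQ against CTX. Stroma markers were below 0 in 6 of 7 and above 0 in 6 of 7 in these comparisons. Erythroid markers were below 0 in 5 of 5 in CTX against Control (median -1.44), with a summed FPKM of 304, 860.4 and 293 in CTX_HCQ, 398, 341 and 569 in CTX and 471, 796 and 3309.6 in Control, highest in Control 3. The theca, macrophage, adipocyte and oocyte markers were above 0 in 3 of 4, 5 of 8, 2 of 5 and 5 of 7 tested in CTX against Control. Granulosa markers were above 0 in 5 of 10 in CTX against Control and in 7 of 10 in CTX_HCQ against CTX. None of these markers passed the adjusted threshold by limma, and their part in the differences of the sterol genes was not tested.

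**Figure D5:**
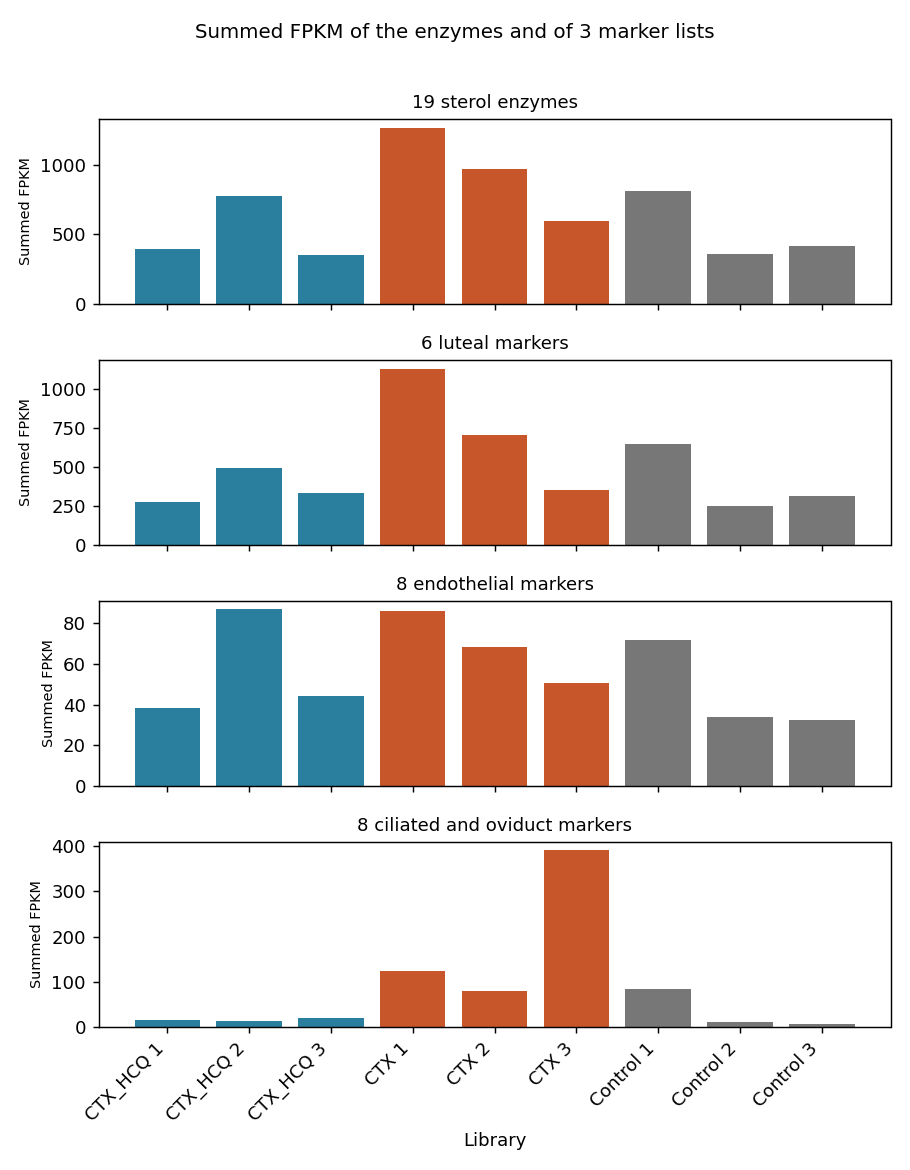
Summed FPKM of the 19 sterol enzymes and of luteal, endothelial, and ciliated and oviduct markers in each library, as bars from 0. CTX 1, CTX 2, Control 1 and CTX_HCQ 2 have the 4 highest bars for the enzymes, the luteal and the endothelial markers, and CTX 3 has the highest for the ciliated and oviduct markers.

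Lists of genes next to the pathway were counted in the same way, with the same shares of all tested genes above 0, 49.5% and 52.1%. Of 31 tested genes of a list of 32 other sterol genes, 15 had a log2 difference above 0 and 16 below 0 in CTX against Control (median -0.03), and 16 and 15 in CTX_HCQ against CTX (median 0.0058). None passed the adjusted threshold by limma. In CTX against Control the smallest p of the list belonged to Mbtps1, the gene of a protease that cleaves SREBP2, which averaged 30.2 ± 7.45 FPKM in CTX_HCQ, 24 ± 3.94 FPKM in CTX and 36 ± 1.79 FPKM in Control, a log2 difference of -0.58 (SE 0.22, adjusted p = 0.639 by limma). In CTX_HCQ against CTX it belonged to Ch25h, whose enzyme makes an oxysterol from cholesterol, which averaged 1.32 ± 0.449 FPKM in CTX_HCQ, 3.16 ± 1.29 FPKM in CTX and 1.49 ± 0.938 FPKM in Control, a log2 difference of -0.82 (SE 0.31, adjusted p = 0.833 by limma). Scarb1, the receptor gene for uptake of lipoprotein cholesterol esters, averaged 131 ± 49.7 FPKM in CTX_HCQ, 212 ± 64.8 FPKM in CTX and 182 ± 37.3 FPKM in Control. Of 10 tested fatty acid synthesis genes under SREBP1, from a list of 11, 6 were above 0 in CTX against Control (median 0.07) and 8 below 0 in CTX_HCQ against CTX (median -0.22). Scd1, a stearoyl-CoA desaturase gene, stood at 17.8, 19 and 21.3 FPKM in CTX_HCQ, 57.2, 45.8 and 19.9 FPKM in CTX and 43.6, 20.7 and 21.7 FPKM in Control, with CTX 1, CTX 2 and Control 1 high, while Acly, whose enzyme makes cytosolic acetyl-CoA, stood at 155, 63.9 and 45.3 FPKM in CTX_HCQ, 83.4, 92.9 and 44.4 FPKM in CTX and 88.5, 160.0 and 187 FPKM in Control, with Control 2, Control 3 and CTX_HCQ 1 high. Of 9 steroid-making genes, 7 were above 0 in CTX against Control (median 0.44) and 6 below 0 in CTX_HCQ against CTX (median -0.34). Of these genes Cyp19a1, the aromatase gene that makes estrogen, had the smallest p in CTX against Control and in CTX_HCQ against Control, and averaged 23.2 ± 12 FPKM in CTX_HCQ, 21.9 ± 14.9 FPKM in CTX and 8.53 ± 3.06 FPKM in Control. Lhcgr, the luteinizing hormone receptor gene and also one of the luteal markers, had the smallest p in CTX_HCQ against CTX and averaged 83.2 ± 25 FPKM in CTX_HCQ, 173 ± 80.3 FPKM in CTX and 149.8 ± 89.5 FPKM in Control. Hsd3b1, the progesterone-forming dehydrogenase gene, was among the 4 of smallest p in CTX against Control and in CTX_HCQ against CTX, and averaged 2928 ± 1169 FPKM in CTX_HCQ, 4917 ± 646 FPKM in CTX and 2954 ± 1237 FPKM in Control.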

How the data were processed

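Polyadenylated RNA of mouse granulosa cells was sequenced in 9 libraries, 3 in each of 3 groups taken from the titles. The authors deposited FPKM per gene. The submitters' processing notes name DESeq2 1.20.0, featureCounts 1.5.0-p3, HISAT2 2.0.5, fastp 0.23.2 and the build GRCm39, without their roles. Whether the libraries keep strand is not stated in the labels, so overlapping genes cannot be told apart.

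The 14431 genes that reached 1 FPKM in 3 or more libraries were tested as log2(FPKM + 1) with limma 3.58.1 (trend, R 4.3.3), all 9 libraries in 1 fit, with Benjamini-Hochberg adjustment over all tested genes and a threshold of 0.05. Fold changes of low genes are understated on this scale. The fit was also run on simulated data, and the share of known changes it recovered is not given here. FPKM of 14427 tested genes came out as whole reads, within 0.02 reads, using exon lengths from GENCODE M21 (13578 genes) or a searched length (849 genes). These reads gave the depths and served an alternative fit with voom.

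The members and lists were chosen with earlier results of these data known. Values in every library are given for 8 fixed members and for the 5 of smallest p in each comparison, and group means for the others. Genes named from another pathway list are among its 4 of smallest p in a comparison. Replicate numbers came from the titles, and same-numbered libraries deviated together with correlations of -0.457 to 0.135, so they were treated as sharing only a number. Libraries of a group differed beyond sampling noise, and none was counted as a repeat of another. Some pathway genes are not reported here.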

Additional observations from a re-analysis of the deposited data

How the results depend on the processing

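The number of genes called was 0 in each comparison under every alternative run, except with library weights and without Control 1. With limma library weights 648 genes were called in CTX against Control, 1 in CTX_HCQ against CTX and 1 in CTX_HCQ against Control, and 16 sterol genes in the first comparison. Leaving out each library in turn gave 0 to 13 genes in CTX against Control and 0 to 10 in CTX_HCQ against CTX, both highest without Control 1, and 0 sterol genes. The median log2 difference of the 29 genes then ranged over 0.35 to 0.83 in CTX against Control, -0.92 to -0.41 in CTX_HCQ against CTX and -0.29 to 0.12 in CTX_HCQ against Control. Rescaling without mitochondrially encoded genes took the median of all genes to 0.106 in CTX_HCQ against CTX, against 0.013 as deposited, where the sterol median was then -0.55 and Srebf2 differed by 0.0078 in place of -0.10. Srebf2 ranged over -0.36 to 0.089 in that comparison with single libraries left out. Scap in CTX_HCQ against Control differed by 0.073 with library weights. The replicate number as a block called 0 genes, with same-numbered libraries not shown to be paired. Of the 28 genes, 7 passed the threshold for r with Hmgcs1 over the 7 libraries without CTX 1 and CTX 2, where others with a similar r missed it. Without the filter, the sterol genes at an unadjusted p under 0.05 were 4 higher in CTX than in Control and 3 lower in CTX_HCQ than in CTX. Of all 32879 genes then tested, 1906 and 1713 had such a p in either direction in these comparisons. The cause of these shifts was not tested. Without library weights, no difference printed for a sterol gene passed the threshold over all genes. Abcg1, at 61 to 235 reads, and Fdps, at 109 to 323 reads, rested on the fewest reads of the members. The largest standard error of a difference was that of Hsd17b7, at 1.03 in CTX against Control.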
